A study of Homo sapiens with 12 samples.

Results

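The 35 genes described here encode enzymes that make sterols and fatty acids, the proteins that set the transcription of these enzymes, and a small group of genes that act when cells hold excess sterol. They were taken from a fixed list by gene symbol, and each gene was read from its brightest probe set, by mean over the 12 arrays, among those that name only that gene. The list held 18 steps of sterol synthesis, 6 regulators and sterol transfer proteins, 8 genes of fatty acid and lipid synthesis, and ABCA1, ABCG1 and MYLIP. Of the 35 genes, 32 had such a probe set, among 19775 genes in all, and 30 were bright enough to test, among 10784.

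The cells were HK-2, an immortalized epithelial line from the human kidney's proximal tubule, grown in a DMEM and Ham's F12 medium supplemented with EGF, hydrocortisone, insulin, transferrin and selenite. The 4 groups were Fk at 12 h, control vehicle at 12 h, Fk at 48 h and control vehicle at 48 h, each with 3 arrays that the labels call biological replicates. All groups were plated the day before treatment and treated near confluence. The labels do not expand the name Fk, and its dose was not used here.

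Cholesterol is built from acetyl-CoA through mevalonate, isoprenoid diphosphates, squalene and lanosterol, and the last steps trim lanosterol into cholesterol. When sterol in the endoplasmic reticulum falls, the escort protein SCAP carries SREBP transcription factors to the Golgi, where they are cut and released to switch on these enzymes. INSIG proteins hold SCAP back when sterol is plentiful, while liver X receptors, which sense oxysterols, switch on the exporters ABCA1 and ABCG1 and the ubiquitin ligase gene MYLIP. SREBP1 is known for fatty acid synthesis genes and SREBP2 for sterol synthesis genes, with overlap between them.

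The deposited values were GCRMA values on a log2 scale, so a difference of 1 is a doubling and values of different probe sets were not set against each other. Of 14 tubular and epithelial markers, 5 reached a level of 4 on at least 3 arrays, namely KRT8, KRT18, KRT19, EPCAM and PAX8, while those of the mature proximal tubule such as AQP1, LRP2, CUBN and SLC34A1 did not. Among markers of other cells, 2 of 5 for fibroblasts (COL1A1 and DCN), 1 of 4 for endothelium and 0 of 3 for leukocytes reached it. Fk at 12 h replicate 3 stood apart from the other 11 arrays: its score on the second principal component was 66.4, against -14.7 to 7.27 elsewhere, and its highest control for large-subunit ribosomal RNA was 14.4, against 9.18 to 10.3. At 48 h, replicates 1 of both groups and replicates 3 of both groups lay at opposite ends of the first component, with scores of 56.1 in Fk and 51.2 in control for replicates 1 and of 13.3 in Fk and 10.2 in control for replicates 3. RNA of whole cultures was measured, in which fewer cells of a type and less RNA per cell cannot be told apart.

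All 5 listed genes that were not tested are accounted for as follows. FDFT1 had no probe set under its own name in the annotation used, and CYP51A1 and FADS1 were named only together with other genes. FADS2, which encodes a fatty acid desaturase, ran from 3.53 to 3.78, and the exporter gene ABCG1 from 2.41 to 2.49, both under the level of 4 set for testing. The listed gene with the lowest value among those tested was MVD, with 6.14 on its dimmest array, so no listed gene lay close above that level.

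**Figure D1:**
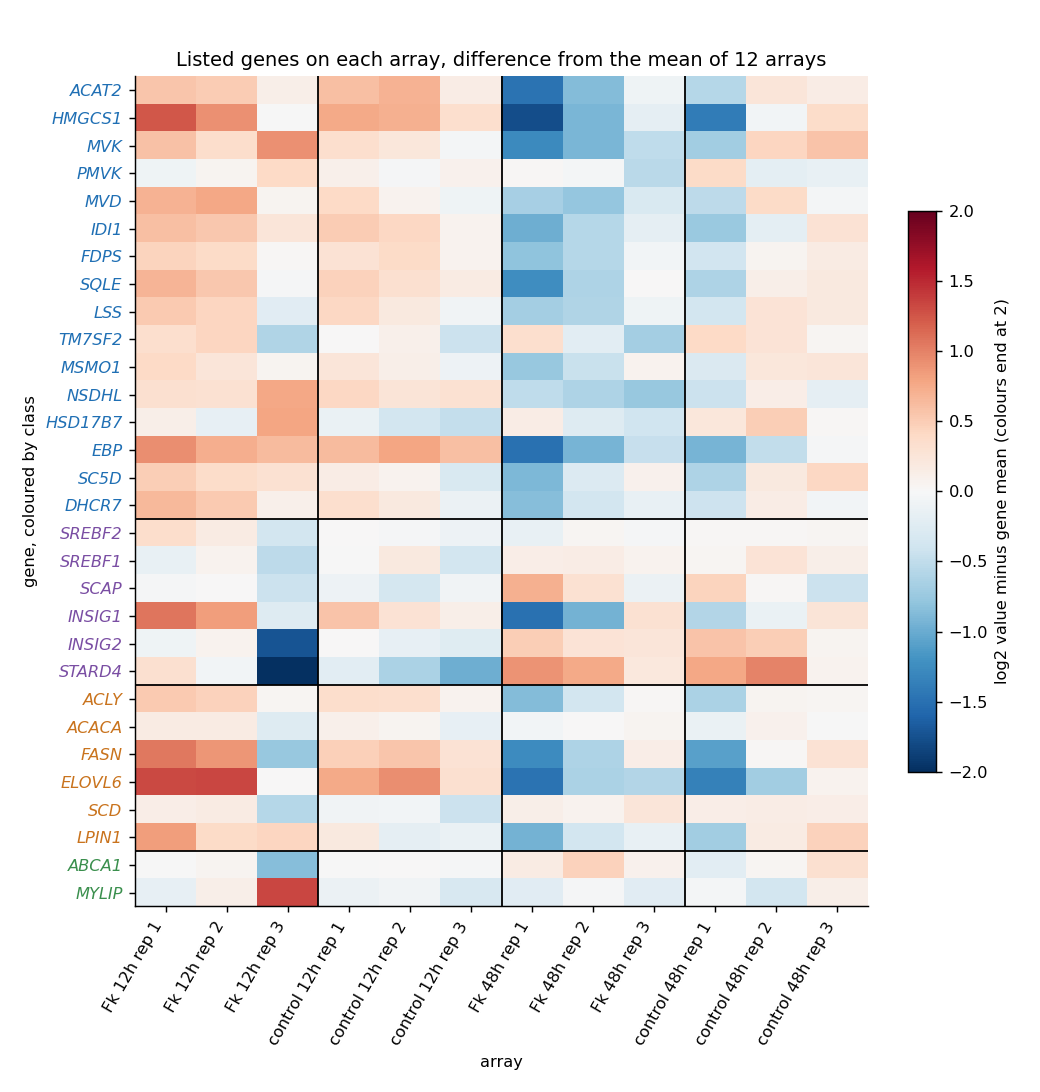
Log2 value of each of the 30 tested genes (rows) on each of the 12 arrays (columns), as the difference from that gene's mean over 12 arrays, red above and blue below, with colours ending at 2. Blue gene names are sterol synthesis, purple names regulators and sterol transfer, orange names fatty acid and lipid synthesis and green names ABCA1 and MYLIP. Sterol genes are mostly red in the 12 h columns and mostly blue in the Fk 48 h columns, with replicate 1 the bluest of the control 48 h columns.

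Of the comparisons made, the largest median shift of the sterol genes was between the times in the Fk cultures. Of 16 sterol synthesis genes, 10 fell between 12 h and 48 h in Fk, all 16 had negative log2 fold changes, and the median was -0.95. The genes called ranged from the first steps of the route (ACAT2 and HMGCS1) through MVK and MVD to the last step, DHCR7. In the fatty acid class 2 of 6, ELOVL6 and LPIN1, fell as well, so 12 of the 30 listed genes fell and 0 rose. The same test called 11.7% of all 10784 genes lower and 11.5% higher, with a median of 0.02 and 48.5% of the log2 fold changes below 0. Calls are an adjusted p under 0.05 from limma over all genes tested.

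EBP, the sterol isomerase that moves a ring double bond, had 10.29, 10.84 and 11.31 in Fk cultures at 48 h, against 12.70, 12.49 and 12.41 in Fk cultures at 12 h. Its log2 fold change was -1.72 ± 0.27 (SE; limma adjusted p = 0.00254), and the arrays of the 2 times did not overlap. In Fk such separation in the lower direction was found in 13 of the 30 listed genes and 2128 of all 10784 genes. NSDHL, a dehydrogenase that helps remove the methyl groups at carbon 4 of the sterol ring, had 9.48, 9.37 and 9.23 in Fk at 48 h, against 10.31, 10.29 and 10.76 in Fk at 12 h. This was a log2 fold change of -1.09 ± 0.17 (SE; limma adjusted p = 0.00265). MVK, mevalonate kinase, had 6.84, 7.19 and 7.59 in Fk at 48 h, against 8.69, 8.46 and 9.02 in Fk at 12 h. It fell to 7.21 ± 0.38 at 48 h, against 8.72 ± 0.28 at 12 h (SD, n = 3 each), a log2 fold change of -1.51 ± 0.32 (SE; limma adjusted p = 0.00912). These 3 genes stayed under the threshold in each of the 12 fits that left out 1 array, with adjusted p-values in limma of at most 0.0385 over all settings tried.

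The earlier steps of the route moved the same way. HMGCS1, which makes the precursor of mevalonate, had 9.37, 10.23 and 10.96 in Fk at 48 h, against 12.38, 12.05 and 11.13 in Fk at 12 h, a log2 fold change of -1.66 ± 0.51 (SE; limma adjusted p = 0.0387). Its 48 h values lay below those of 12 h by only a narrow gap, between replicate 3 at 48 h and replicate 3 at 12 h. ACAT2, the cytosolic thiolase that joins acetyl-CoA units, had 10.75, 11.38 and 12.14 at 48 h, against 12.79, 12.74 and 12.36 at 12 h. MVD, which decarboxylates mevalonate diphosphate, had 6.25, 6.14 and 6.62 at 48 h, against 7.61, 7.69 and 6.97 at 12 h. The log2 fold changes of ACAT2 and MVD were -1.21 ± 0.34 and -1.09 ± 0.26 (SE; limma adjusted p = 0.0281 and 0.0161), with no overlap of the arrays.

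For the isoprenoid and squalene steps, IDI1, the isomerase of isopentenyl diphosphate, had 11.19, 11.61 and 12.00 in Fk at 48 h, against 12.77, 12.72 and 12.41 in Fk at 12 h. FDPS, farnesyl diphosphate synthase, had 12.50, 12.73 and 13.24 at 48 h, against 13.75, 13.68 and 13.32 at 12 h. SQLE, squalene epoxidase, had 11.04, 11.66 and 12.28 at 48 h, against 12.96, 12.82 and 12.25 at 12 h. In all of these, replicate 3 was the highest at 48 h and the lowest at 12 h, and in SQLE its 48 h value passed its 12 h value, so that the times overlapped. The log2 fold change was -1.04 ± 0.27 for IDI1 (SE; limma adjusted p = 0.0222), -0.76 ± 0.21 for FDPS (adjusted p = 0.0293) and -1.02 ± 0.32 for SQLE (adjusted p = 0.0443). DHCR7, which makes cholesterol from 7-dehydrocholesterol, had 9.55, 10.04 and 10.26 at 48 h, against 11.05, 10.94 and 10.51 at 12 h, a log2 fold change of -0.88 ± 0.23 (SE; limma adjusted p = 0.0208).

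The 6 sterol genes that did not pass had log2 fold changes between -0.74 (SC5D, a sterol desaturase; limma adjusted p = 0.0892) and -0.24 (TM7SF2, a sterol reductase; adjusted p = 0.614). Among them LSS and MSMO1, which close and demethylate the sterol ring, stood at -0.70 and -0.61 with limma adjusted p-values of 0.069 and 0.0681.

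ELOVL6, which lengthens palmitate, had 7.31, 8.14 and 8.20 in Fk at 48 h, against 10.10, 10.11 and 8.78 in Fk at 12 h, a log2 fold change of -1.78 ± 0.44 (SE; limma adjusted p = 0.0172). LPIN1, a phosphatidate phosphatase that makes diacylglycerol, had 8.93, 9.51 and 9.73 at 48 h, against 10.72, 10.26 and 10.32 at 12 h, a log2 fold change of -1.04 ± 0.30 (SE; limma adjusted p = 0.0301). In both genes every 48 h array lay below every 12 h array. ACLY, which supplies cytosolic acetyl-CoA, and FASN, fatty acid synthase, had log2 fold changes of -0.75 and -0.98 that did not pass (limma adjusted p = 0.0554 and 0.191). ACACA and SCD, the carboxylase and the desaturase of the same route, were at -0.02 and 0.25. Their further probe sets differed from these, at -0.60 for ACACA and at 0.11, -0.24 and -0.20 for SCD.

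The regulators had no common direction and none passed. STARD4, which ferries sterol between membranes, had 11.33, 11.19 and 10.63 in Fk at 48 h, against 10.74, 10.37 and 8.27 in Fk at 12 h, a log2 fold change of 1.26 (limma adjusted p = 0.121). INSIG2 likewise stood at 0.91 (adjusted p = 0.11). Both were at their lowest of all 12 arrays on Fk at 12 h replicate 3, and without that array they stood at 0.50 and 0.34. INSIG1, itself a known SREBP target, stood on the other side at -1.26 (limma adjusted p = 0.0686), with 10.36, 10.91 and 12.15 in Fk at 48 h, against 12.92, 12.68 and 11.60 in Fk at 12 h. SREBF2, SREBF1 and SCAP lay between -0.09 and 0.45. ABCA1 and MYLIP stood at 0.51 and -0.58 (limma adjusted p = 0.136 and 0.204), and at 0.22 and -0.13 without Fk at 12 h replicate 3.

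The number of listed genes called in Fk over time rested on single arrays. The number of all genes called, 2500 with every array, changed with them as well. The listed count was 3 without Fk at 12 h replicate 1, without Fk at 12 h replicate 2 or without Fk at 48 h replicate 1. All genes called then numbered 1807, 1831 and 1297. Without Fk at 48 h replicate 2 it was 5, beside 1422 of all genes. The median over sterol genes stayed between -0.69 and -1.03 in the 12 fits. With the replicates 1 of both 48 h groups left out, 6 were called, beside 1373 of all genes, and the median was -0.69.

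The control cultures were compared over the same interval to see how much of this occurred without Fk. Of the 16 sterol genes 1, EBP, fell between 12 h and 48 h in control, 13 had negative log2 fold changes, and the median of the 16 was -0.21. With 1 array left out that median ranged from -0.36 without control at 48 h replicate 2 to -0.09 without control at 12 h replicate 1, and 9 of the 16 were negative without control at 48 h replicate 1. Limma called 10.9% of all genes lower and 10.6% higher in this comparison, with a median of 0.01 and 48.5% below 0. EBP had 10.84, 11.28 and 11.74 in control cultures at 48 h, against 12.40, 12.56 and 12.38 in control cultures at 12 h. This was a log2 fold change of -1.16 ± 0.27 (SE; limma adjusted p = 0.0142). ELOVL6 and NSDHL came next, at -1.33 and -0.49 (limma adjusted p = 0.0526 and 0.067), and their arrays did not overlap between times. Such separation in the lower direction was common in control, in 5 of the 30 listed genes and 2681 of all 10784 genes. MVK and LPIN1, by contrast with their values in Fk, stood at -0.07 and 0.02 in control cultures, with limma 95% intervals of -0.78 to 0.63 and -0.64 to 0.67. STARD4 stood at 1.22 in control (limma adjusted p = 0.135).

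EBP left the called genes when control at 12 h replicate 2 or control at 48 h replicate 1 was left out (0 listed genes called), whereas 6 were called without Fk at 12 h replicate 3, an array of neither control group that enters through the shared spread.

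**Figure D2:**
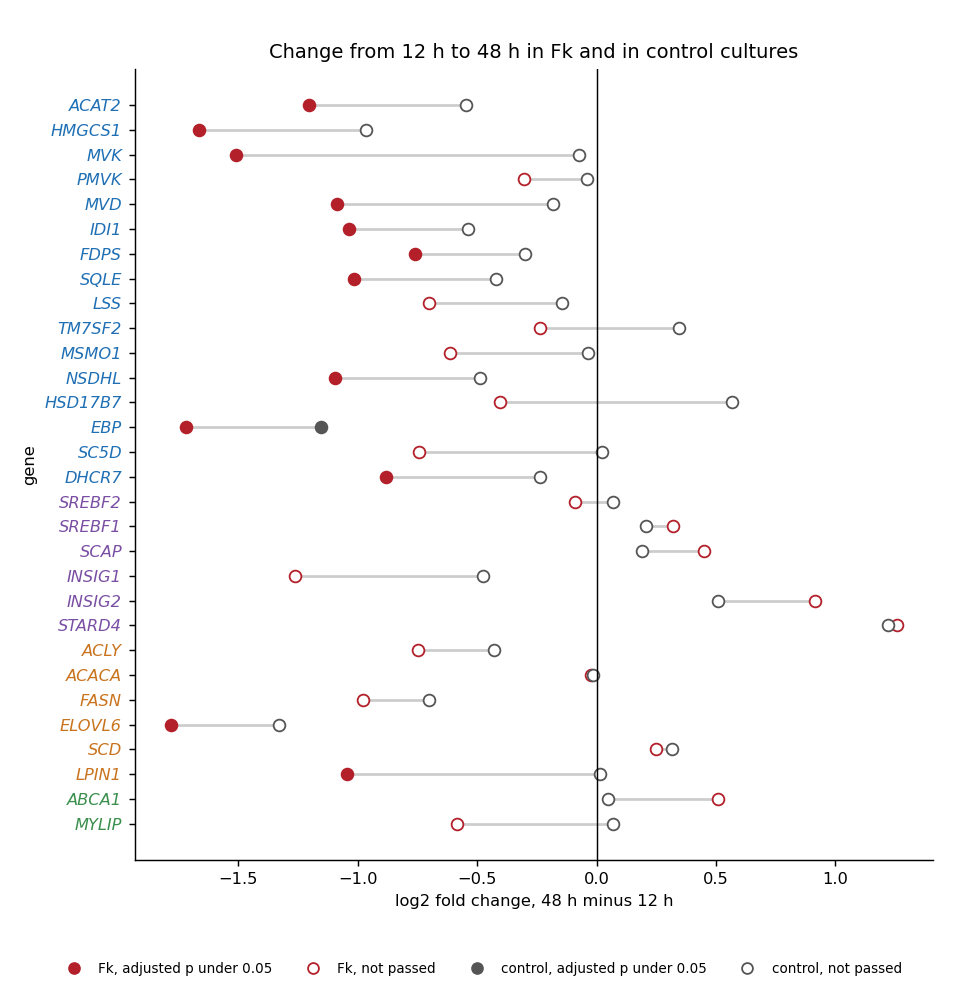
Log2 fold change between 12 h and 48 h (horizontal axis, 48 h minus 12 h) of each tested gene in Fk cultures (red) and control cultures (grey), filled where the limma adjusted p was under 0.05. The red points of all 16 sterol genes lie left of the grey ones, 12 red points and 1 grey point are filled, and STARD4 lies at 1.26 in Fk and 1.22 in control.

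Promoters of the 8 sterol genes that fell over time in Fk and had an entry in the RefSeq table (GRCh38.p14), with SREBF2, are shown because SREBPs are known to act together with NF-Y, a factor that binds CCAAT. In each 90-base stretch, written 5′ to 3′ on the gene's own strand, capitals mark CCAAT on either strand, where ATTGG is the reverse complement, and in SREBF2 also the sterol response element letters TCACNCCAC. In IDI1 and NSDHL a CCAAT overlaps its own reverse complement as CCAATTGG. Each stretch was chosen as the 90 bases before the start site that hold the most marked letters, so their number in it follows from that choice.
MVK, chr12:109573695-109573784, plus strand: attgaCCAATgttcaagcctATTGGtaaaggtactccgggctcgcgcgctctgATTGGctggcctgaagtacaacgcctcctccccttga
NSDHL, chrX:152830920-152831009, plus strand: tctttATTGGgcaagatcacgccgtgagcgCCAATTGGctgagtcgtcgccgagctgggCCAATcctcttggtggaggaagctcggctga
EBP, chrX:48521718-48521807, plus strand: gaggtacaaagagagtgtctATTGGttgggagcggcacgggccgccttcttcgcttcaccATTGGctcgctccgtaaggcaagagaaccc
HMGCS1, chr5:43313483-43313572, minus strand: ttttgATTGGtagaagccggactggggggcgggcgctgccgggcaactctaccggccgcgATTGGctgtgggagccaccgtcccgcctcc
MVD, chr16:88663166-88663255, minus strand: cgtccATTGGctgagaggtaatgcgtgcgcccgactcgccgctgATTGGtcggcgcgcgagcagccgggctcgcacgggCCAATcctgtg
IDI1, chr10:1048934-1049023, minus strand: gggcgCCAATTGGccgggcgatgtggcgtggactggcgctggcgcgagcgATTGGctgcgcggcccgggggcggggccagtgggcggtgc
FDPS, chr1:155308739-155308828, plus strand: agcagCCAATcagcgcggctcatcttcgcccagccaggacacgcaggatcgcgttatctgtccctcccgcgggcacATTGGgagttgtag
DHCR7, chr11:71448403-71448492, minus strand: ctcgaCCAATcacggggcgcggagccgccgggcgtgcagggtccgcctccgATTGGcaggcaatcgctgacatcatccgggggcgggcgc
SREBF2, chr22:41832967-41833056, plus strand: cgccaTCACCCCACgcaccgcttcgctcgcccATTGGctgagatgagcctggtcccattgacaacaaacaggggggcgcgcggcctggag

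Promoters of 250 bases before to 50 after the start were found for 30 of the 35 listed genes. ACAT2, FDFT1, SQLE, FASN and ABCG1 were not matched. CCAAT stood, on either strand, in 13 of 15 sterol genes (86.7%) and in 21 of 30 listed genes (70%), beside 39.7% of 27305 genes with a promoter in the table. By class it was found in 3 of 6 regulators, 4 of 7 fatty acid genes and 1 of 2 of the sterol efflux group. TCACNCCAC stood in 1 of 30 listed genes, SREBF2, beside 1.39% of all genes, and the letters of the DR4 element that liver X receptors are known to bind in 0 of 30, beside 0.0256%. These matches describe letters only. Where members had several promoters in the table, any of them counted.

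Fk and control cultures of the same time were then compared. At 48 h no listed gene passed the threshold, nor did any of the 10784 genes in limma, of which 559 had an unadjusted p under 0.05. All 16 sterol genes had a lower mean in Fk than in control, where 46.2% of all genes did, and their median log2 fold change was -0.45, against 0.02 over all genes. They ranged from -1.003 for MVK to -0.20 for PMVK, the next kinase of the mevalonate route. In 3 of the 16 (MVK, NSDHL and ACAT2) the unadjusted p was under 0.05, as it was in the lower direction in 1.95% of all genes, and in 1 of them, NSDHL, the arrays did not overlap, as in 4.02% of all genes. The count with an unadjusted p under 0.05 rested on single arrays. It was 12 of 16 without control at 48 h replicate 1 and 8 without Fk at 48 h replicate 3. It was 5 without Fk at 12 h replicate 3 and 1 without control at 48 h replicate 2. The share of all genes was not counted in these refits, so the 1.95% does not belong beside these counts.

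**Figure D3:**
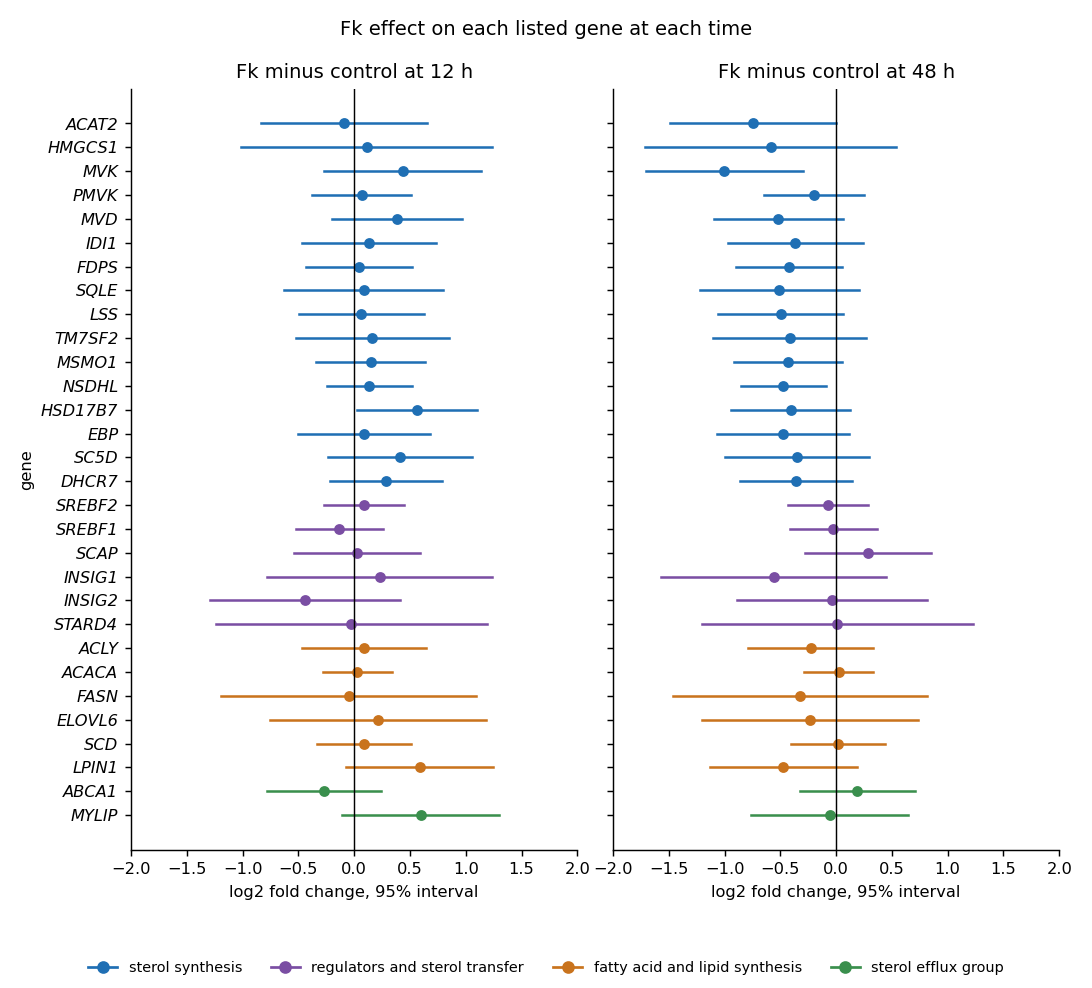
Log2 fold change of Fk minus control for each tested gene at 12 h and at 48 h (horizontal axes), with limma's 95% interval over 3 arrays a group, coloured by class. At 48 h all 16 sterol points lie left of 0, from -1.003 to -0.20, and most intervals cross 0; at 12 h 15 of 16 lie right of 0.

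MVK had 6.84, 7.19 and 7.59 in Fk cultures at 48 h, against 7.42, 8.53 and 8.68 in control cultures. The groups overlapped through control replicate 1, which lay below Fk replicate 3. The log2 fold change was -1.003 ± 0.32 (SE; 95% interval -1.71 to -0.30), with an unadjusted p of 0.00967 and an adjusted p of 0.726 in limma. NSDHL had 9.48, 9.37 and 9.23 in Fk, against 9.56, 10.13 and 9.81 in control, a log2 fold change of -0.47 ± 0.17 (SE; limma adjusted p = 0.859). Its groups were separated by the small gap between the replicates 1. For ACAT2 the values were 10.75, 11.38 and 12.14 in Fk and 11.66, 12.48 and 12.38 in control, a log2 fold change of -0.75 ± 0.34 (SE; limma adjusted p = 0.962), and Fk replicate 3 lay above control replicate 1. MVD had 6.25, 6.14 and 6.62 in Fk, against 6.39, 7.29 and 6.88 in control, a log2 fold change of -0.52 ± 0.26 (SE; limma adjusted p = 1).

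Of the regulators, INSIG1 had 10.36, 10.91 and 12.15 in Fk at 48 h, against 11.26, 11.73 and 12.11 in control, a log2 fold change of -0.56 with a limma 95% interval of -1.57 to 0.45. The groups overlapped, with Fk replicate 3 the highest of these 6 arrays. SCAP, the escort protein, had 9.03, 8.63 and 8.20 in Fk, against 8.76, 8.35 and 7.90 in control, a log2 fold change of 0.29 (limma adjusted p = 1). SREBF2, SREBF1, INSIG2 and STARD4 differed by -0.07, -0.02, -0.04 and 0.01.

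The fatty acid class was divided, with a median of -0.23. LPIN1 had 8.93, 9.51 and 9.73 in Fk at 48 h, against 9.19, 10.05 and 10.35 in control, a log2 fold change of -0.47 (limma adjusted p = 1). FASN had 8.02, 8.66 and 9.40 in Fk and 8.19, 9.30 and 9.56 in control, at -0.32, and ACLY had 11.88, 12.38 and 12.77 in Fk and 12.13, 12.81 and 12.79 in control, at -0.23. In all of these genes the values of Fk and control overlapped. ACACA and SCD differed by 0.02 each, and their further probe sets by -0.29 for ACACA and by 0.08, -0.08 and -0.04 for SCD.

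ABCA1, which exports cholesterol to apolipoproteins, had 10.79, 11.08 and 10.72 in Fk at 48 h, against 10.41, 10.66 and 10.95 in control. MYLIP, a ligase that marks lipoprotein receptors for degradation, had 7.01, 7.21 and 7.01 in Fk and 7.19, 6.86 and 7.35 in control. The log2 fold changes were 0.19 for ABCA1 and -0.06 for MYLIP, with limma 95% intervals of -0.32 to 0.71 and -0.76 to 0.65, and the arrays of both genes overlapped.

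**Figure D4:**
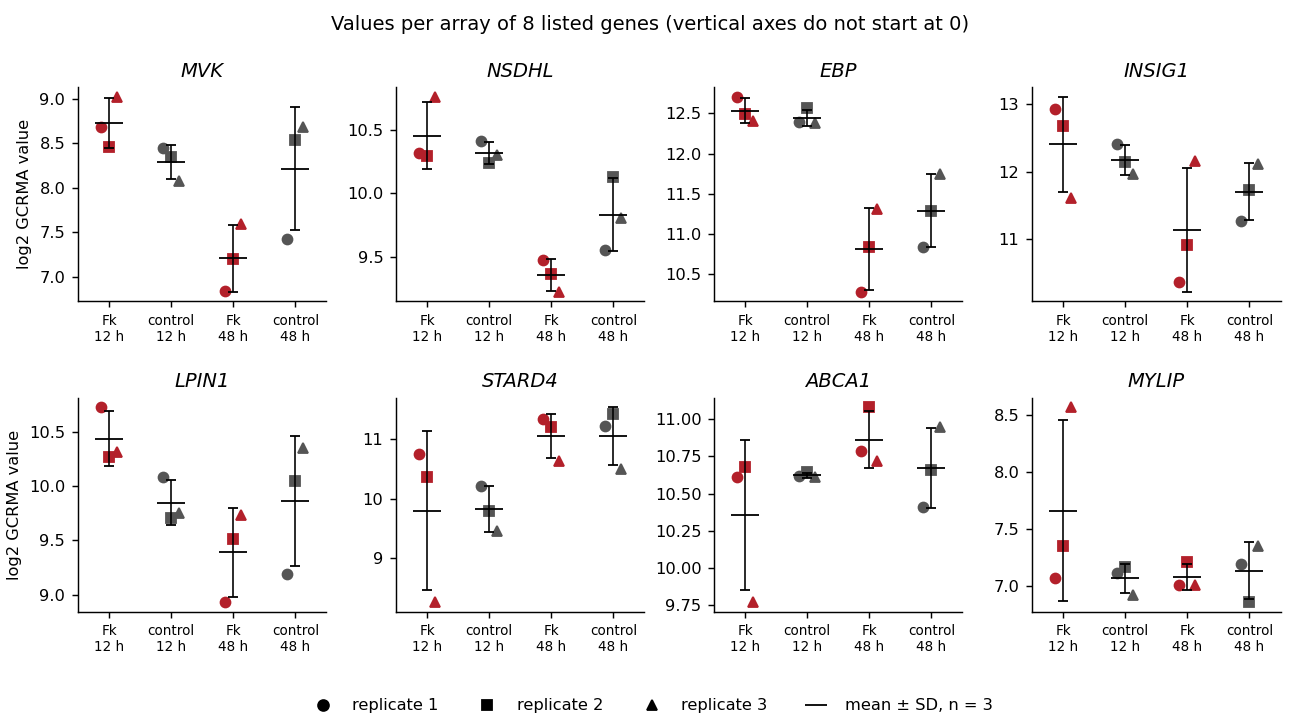
Log2 GCRMA value of 8 listed genes on each array (vertical axes, which do not start at 0), with Fk in red and control in grey at 12 h and 48 h, symbols for the replicate number, and the mean ± SD of 3 arrays as black bars. MVK in Fk at 48 h, at 7.21 ± 0.38, lies lowest of the 4 groups, while STARD4 is high at 48 h in both treatments and low on Fk 12 h replicate 3.

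The 48 h values moved with replicate number in both groups. The median deviation of the 16 sterol genes from their own 12-array means was -0.83, -0.59 and -0.18 on Fk replicates 1, 2 and 3 at 48 h, against -0.48, 0.17 and 0.16 on control replicates 1, 2 and 3. Replicate 1 was the lowest array of its group for 11 of 16 sterol genes in Fk and for 13 of 16 in control. The median log2 fold change over sterol genes was -0.28 without Fk at 48 h replicate 1 and -0.64 without Fk at 48 h replicate 3, and it was -0.52 without the replicates 1 of both groups and -0.51 without the replicates 3 of both. The fatty acid median was 0.02 without Fk at 48 h replicate 1. With replicate number within each time fitted as a block, the unadjusted p in limma was under 0.05 in 13 of 16 sterol genes at 48 h, all lower in Fk. It was 3 of 16 without the block. The share of all genes under 0.05 was not counted in the blocked fit, so 13 of 16 cannot be set beside all genes. No listed gene passed in the blocked fit, and the numbers were not taken as pairs. Its sterol median of -0.45 is the same by construction, since each block holds 1 Fk and 1 control array. The cause of the shift with replicate number was not tested.

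**Figure D5:**
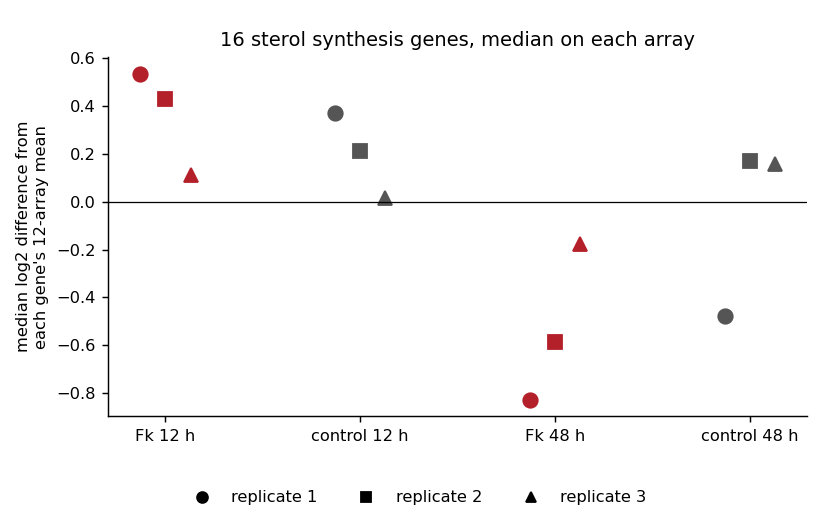
Median over 16 sterol synthesis genes of the log2 difference from each gene's mean over 12 arrays (vertical axis), 1 point per array, with symbols for the replicate number. The Fk 48 h arrays run from -0.83 to -0.18 and the control 48 h arrays from -0.48 to 0.17, and replicate 3 is the lowest array of both 12 h groups.

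At 12 h the sterol genes leaned the other way, by less. No listed gene and none of the 10784 genes passed in limma, and 724 genes had an unadjusted p under 0.05. Of 16 sterol genes 15 had a higher mean in Fk than in control, where 53.2% of all genes did, with a median log2 fold change of 0.13 against 0.01 over all genes. The unadjusted p was under 0.05 for 1 of them, HSD17B7, beside 4.4% of all genes in this direction, and the arrays did not overlap for MVK, SC5D and LPIN1, 3 of the 30 listed genes, beside 9.91% of all genes. Both shares of the listed genes are near those of all genes.

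HSD17B7, the ketosterol reductase, had 10.92, 10.64 and 11.59 in Fk cultures at 12 h, against 10.68, 10.44 and 10.33 in control cultures. Its log2 fold change was 0.57 ± 0.24 (SE) with an unadjusted p of 0.0408 and an adjusted p of 0.739 in limma. Its probe set is of the kind that can bind related transcripts, and the high value was on replicate 3. MVK had 8.69, 8.46 and 9.02 in Fk, against 8.45, 8.34 and 8.07 in control, a log2 fold change of 0.43 ± 0.32 (SE; limma adjusted p = 0.807). SC5D had 11.64, 11.50 and 11.45 in Fk and 11.29, 11.21 and 10.84 in control, at 0.41 ± 0.29 (SE; limma adjusted p = 0.8). MVD had 7.61, 7.69 and 6.97 in Fk and 7.32, 6.98 and 6.82 in control, at 0.39 ± 0.26 (SE; limma adjusted p = 0.794), with the groups overlapping.

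LPIN1 stood highest of the fatty acid class at 12 h, with 10.72, 10.26 and 10.32 in Fk, against 10.08, 9.71 and 9.75 in control, a log2 fold change of 0.59 ± 0.30 (SE; limma adjusted p = 0.759). ELOVL6 had 10.10, 10.11 and 8.78 in Fk and 9.54, 9.72 and 9.09 in control, and SCD had 14.28, 14.30 and 13.57 in Fk and 14.08, 14.09 and 13.72 in control. On both, Fk replicate 3 was the lowest of the 12 h arrays and the other Fk arrays were the highest, and the log2 fold changes were 0.22 and 0.09. Without Fk at 12 h replicate 3 they were 0.66 and 0.33. With all arrays, further probe sets stood at 0.27 and -0.73 for ELOVL6 and at 0.34, 0.52 and 0.54 for SCD.

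INSIG2 had 8.03, 8.19 and 6.39 in Fk at 12 h, against 8.12, 7.94 and 7.86 in control, and SREBF1 had 7.45, 7.67 and 7.07 in Fk, against 7.58, 7.78 and 7.23 in control. Their log2 fold changes of -0.44 and -0.13 became 0.13 and 0.03 without Fk replicate 3. ABCA1 had 10.61, 10.68 and 9.77 in Fk and 10.62, 10.64 and 10.61 in control, while MYLIP had 7.06, 7.35 and 8.57 in Fk and 7.11, 7.16 and 6.92 in control. ABCA1 stood at -0.27 and MYLIP at 0.60 (limma adjusted p = 0.824 and 0.762), and both values came mostly from replicate 3, the array that stood apart.

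Without Fk at 12 h replicate 3, 14 of 16 sterol genes had a higher mean in Fk, with a median of 0.29, and the fatty acid median was 0.42 in place of 0.09. Without Fk at 12 h replicate 1 the sterol count was 11 of 16, with a median of 0.06.

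Whether the Fk effect differed between the times was tested directly, as the effect at 48 h minus the effect at 12 h. No listed gene and no other gene passed in limma, and 357 genes had an unadjusted p under 0.05. All 16 sterol genes had a negative difference, beside 48.4% of all genes, with a median of -0.60 against 0.01. The unadjusted p was under 0.05 in 5 of the 30 listed genes, all negative, beside 1.98% of all genes in that direction. They were MVK at -1.44 ± 0.45 (SE), HSD17B7 at -0.97 ± 0.34, NSDHL at -0.61 ± 0.24, MVD at -0.90 ± 0.37 and LPIN1 at -1.06 ± 0.42, each with a limma adjusted p of 0.996. Of these 5, 4 were among the 16 sterol genes, and that count was 9 without Fk at 48 h replicate 3, 7 without control at 48 h replicate 1 and 2 without any 1 of control at 12 h replicate 2, control at 12 h replicate 3, Fk at 48 h replicate 2 or control at 48 h replicate 2. The share of all genes was not counted in these refits, so the 1.98% does not belong beside these counts. For MVK the 95% interval of the difference ran from -2.43 to -0.44. This difference is also the difference between the time course in Fk and that in control, so the larger number of sterol genes called over time in Fk is not shown to differ from that in control for any single gene.

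INSIG1 and INSIG2 had differences of -0.79 and 0.40, ACLY and ELOVL6 of -0.32 and -0.45, and ABCA1 and MYLIP of 0.46 and -0.65, all with limma adjusted p-values of 0.996. Without Fk at 12 h replicate 3 the differences of INSIG2, ABCA1 and MYLIP were -0.17, 0.17 and -0.20. Averaged over both times, no listed gene passed, while 1 gene, 0.00927% of all, did in limma, and it was lower. The sterol median was -0.16, with 14 of 16 negative, beside 45.9% of all genes. ACAT2 had the smallest p of these, at -0.42 ± 0.24 (SE; limma adjusted p = 0.718), and NSDHL, MVK and FDPS lay at -0.17, -0.28 and -0.19. Of the other classes, INSIG2 and SCAP lay at -0.24 and 0.15, FASN, ACLY and SCD at -0.19, -0.07 and 0.05, and ABCA1 and MYLIP at -0.04 and 0.27.

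Several genes have more than 1 probe set that names only them. Among sterol genes, 15 further probe sets of 9 genes reached the level of 4. Of these 14 had a negative log2 fold change of Fk minus control at 48 h, 14 a negative one over time in Fk, and 12 a positive one of Fk minus control at 12 h. For MVK the further probe sets that reached it stood nearer to no change than the brightest. They were at -0.51 and -0.43 for Fk minus control at 48 h, against -1.003. Over time in Fk they were at -0.97 and -0.98, against -1.51, and for the difference between times at -0.83 and -0.76, against -1.44. For IDI1 a dim further probe set stood at 0.22 over time in Fk, against -1.04 for the brightest. That brightest probe set and a further one at -0.91 are of the kind that can bind related transcripts, and the dim one is not.

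A second list of 36 genes, of which 31 were tested, covered neighbouring steps such as lipid acyl transfer, protein prenylation and sterol transport. Over time in Fk 2 of 31 rose and 5 fell, beside 11.5% and 11.7% of all genes tested. Whether the list differs from all genes was not tested. NPC1, which moves cholesterol out of lysosomes, rose with 12.44, 12.49 and 12.45 in Fk at 48 h, against 11.38, 11.02 and 10.55 in Fk at 12 h, a log2 fold change of 1.48 ± 0.22 (SE; limma adjusted p = 0.00189), and PGGT1B, a subunit of a prenyltransferase, rose by 0.56 (limma adjusted p = 0.0113). TMEM97, a sterol-regulated membrane protein, fell with 10.33, 11.09 and 11.22 at 48 h, against 12.64, 12.40 and 12.10 at 12 h, a log2 fold change of -1.50 ± 0.31 (SE; limma adjusted p = 0.0089). ERG28, a scaffold of sterol demethylation in yeast, stood at -1.22, PDSS1 at -1.45 and TECR, a reductase of fatty acid elongation, at -0.77 (limma adjusted p = 0.00325, 0.032 and 0.00742).

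The control cultures shared part of this: 5 of 31 rose and 3 fell, beside 10.6% and 10.9% of all genes tested. Those that rose included NPC1 at 1.36 (limma adjusted p = 0.00297). Those that fell included PDSS1 at -2.03 and ERG28 at -0.63 (limma adjusted p = 0.00897 and 0.0495). Between Fk and control none of the 31 passed at either time. With the smallest p at 48 h, ACACB and SOAT1 stood at -0.51 and -0.32, and PDSS1 and DGAT1 at 0.61 and 0.18. At 12 h TECR and FNTA stood at 0.43 and 0.29, and GPAM and DHDDS at -0.48 and -0.18. Without Fk at 12 h replicate 3, GPAM stood at 0.03 and FNTA at 0.16. The median of the second list was 0.02 at 48 h, as it was over all genes, and 0.12 at 12 h.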

How the data were processed

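Per the submitters' processing notes, the authors' deposited probe set values came from GCRMA, and by their range they are log2 values. The GCRMA version and whether the arrays were normalized with others are not given in the sources used here. Of 54675 probe sets 41097 carried 1 gene symbol, 1801 several and 11777 none, and symbols were updated through gene IDs in RefSeq's table. Each gene was read from its brightest probe set with 1 symbol and tested if this reached 4 on at least 3 arrays.

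Group means over 12 arrays were fitted with limma 3.58.1 in R 4.3.3 (lmFit and eBayes, two-sided, 8 residual and 2.44 prior degrees of freedom). P-values were adjusted by the Benjamini-Hochberg method over all 10784 genes, with a threshold of 0.05. With 3 arrays a group, precision was limited: 95% intervals of Fk effects at 48 h had half-widths with a median of 0.447. The test was tried on 5 simulated sets, with changes set in Fk at 48 h. It recovered 57.8% of changes of 1 and 87.8% of changes of 2 on the log2 scale, with 6.6 false calls per set. The noise was independent between genes, so shifts that many genes share on an array were not simulated. Figures used matplotlib 3.10.9 in Python 3.11.15.

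The listed genes, the second list and the tests were chosen with earlier results of these data known. The rule gave full values, per comparison, to listed genes that passed, or otherwise to the 4 sterol, 2 regulator and 3 fatty acid genes with the smallest p and to ABCA1, ABCG1 and MYLIP. Of the second list it named up to 4 genes per direction that passed, or the 2 with the smallest p.

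Beside the reported setting 26 others were run: 23 from the plan, and 3 that were added once the data had been seen. Array weights were fitted gene by gene, since the restricted likelihood fit did not converge.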

Additional observations from a re-analysis of the deposited data

How the results depend on the processing

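In the 4 comparisons of Fk effects, 0 listed genes passed in each setting tried. All 16 sterol genes had a lower mean in Fk at 48 h in each setting that read them, except without the probe sets marked _s_at or _x_at, which read 10 of them, 9 lower. Under that choice IDI1 stood at 0.22 over time in Fk. Settings that left out only 12 h arrays, or changed only the filter, prior, threshold, block or groups fitted, keep the 48 h differences. In them the signs at 48 h were fixed in advance and are no further check.

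With 1 array left out, the genes called ranged from 0 to 3 at 12 h, 0 to 1 at 48 h, 0 to 2 for the mean of both times, 1060 to 3438 over time in control and 1297 to 2787 over time in Fk. Listed genes called ranged from 0 to 6 over time in control and from 3 to 17 over time in Fk. The fatty acid median ranged from -0.025 to 0.42 at 12 h, from -0.52 to 0.022 at 48 h and from -0.15 to 0.099 for the mean. At 12 h the range was -0.29 to 0.028 for SREBF1, -0.77 to 0.13 for INSIG2, -0.0094 to 0.66 for ELOVL6, -0.040 to 0.33 for SCD and -0.43 to 0.022 for ABCA1. At 48 h it was -0.45 to 0.0042 for ACLY, -0.74 to 0.012 for FASN and -0.19 to 0.053 for MYLIP, and for the difference of INSIG2 between times -0.17 to 0.73. For the mean it was -0.40 to 0.048 for INSIG2, -0.18 to 0.047 for ACLY, -0.39 to 0.099 for FASN, -0.012 to 0.17 for SCD and -0.12 to 0.11 for ABCA1. Over time in control it was -0.31 to 0.32 for MVK, -0.40 to 0.045 for MVD and -0.23 to 0.35 for LPIN1.

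Array weights, which gave Fk at 12 h replicate 3 a weight of 0.121, called 156 genes at 12 h, 94 at 48 h, 527 for the mean, 4920 over time in control (8 listed) and 5345 over time in Fk (21 listed). They put INSIG2 at 0.051 at 12 h and -0.20 for the difference, and MYLIP at 0.17 at 48 h and 0.015 for the difference. For the mean they put FASN at 0.020 and ABCA1 at 0.18, and MVK over time in control at 0.0002.

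The replicate numbers were not taken as pairs, since not every same-numbered correlation was over 0.1. The deviations of same-numbered Fk and control arrays correlated at 0.041, 0.265 and 0.163 at 12 h and at 0.798, -0.025 and 0.607 at 48 h, and 5 of 6 Fk arrays correlated best with the control array of their own number, a hint from the data and not the design. With the replicate block, 13 of 16 sterol genes at 48 h and 15 for the difference were negative with an unadjusted limma p under 0.05. With array weights these counts were 12 and 14. The share of all genes was not counted in either fit. With the replicate block, 1 gene was called at 12 h, 0 for the mean and 2589 over time in control (2 listed). The block without Fk at 12 h replicate 3 called 3 genes at 12 h, 4 at 48 h and 4 for the mean, 4019 over time in control (6 listed) and 3813 over time in Fk (19 listed). It put INSIG2 at 0.078 and ABCA1 at 0.015 at 12 h, INSIG2 at -0.11 for the difference, and INSIG2, FASN and ABCA1 at 0.021, 0.061 and 0.10 for the mean.

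The mean of all probe sets of a gene called 4 genes at 48 h, 2 for the mean of both times and 2208 over time in control (2 listed). It put ELOVL6 at -0.081 at 12 h and LPIN1 at -0.10 over time in control. For the mean of both times it put ABCA1 at 0.018 and the fatty acid median at -0.040. Without a filter 1 gene was called at 48 h, 0 for the mean and 1771 over time in Fk (6 listed). With a level of 6 it was 1 gene at 48 h and 2288 over time in control (2 listed). Only the groups compared gave 1 gene at 48 h, 3125 over time in control (4 listed) and 831 over time in Fk (3 listed). A threshold of 0.1 gave 4 genes at 48 h and 3349 over time in control (3 listed), and a trend with a robust prior 0 for the mean. Quantile normalization gave 1 gene at 48 h. It put the fatty acid median of the mean at -0.019 and LPIN1 over time in control at -0.0046, and centring on the array median put them at -0.019 and -0.0097.

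Without the replicates 1 of both 48 h groups, 0 genes were called for the mean, 1312 over time in control and 1373 over time in Fk (6 listed), with MYLIP at 0.0049 at 48 h, the fatty acid median of the mean at -0.018, and MVK and MVD over time in control at 0.32 and 0.045. Without the replicates 3 of both 48 h groups, 2927 genes were called over time in control (3 listed). MYLIP then stood at 0.086 at 48 h, ABCA1 at 0.065 for the mean and LPIN1 at -0.23 over time in control. The cause of these shifts was not tested.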
